A study of Bos taurus with 8 samples.

Results

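The genes described here are the solute carriers (SLC genes), which code for membrane proteins that move small molecules into and out of cells and organelles. They were taken by symbol alone, as named by the RefSeq transcript of each array probe, without the glucose carriers of SLC2A, the fatty acid carriers of SLC27A and the zinc carriers SLC30A1 and SLC39A14. Of 163 such genes with a probe on the array, 126 were measured, meaning that their brightest probe read above background in at least 4 of 16 channel readings. These 126 stand among 6693 named genes measured, and 90 of them were above background in all 16 readings. The rule used symbols and signal only, but it was set with earlier results of these data known.

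The samples were the m. semitendinosus, a hindlimb muscle, of 12 bulls aged 15 months, 4 of each of 3 breeds, with no treatment or genetic change stated. The study set the muscle of Hereford, a beef breed, and Holstein-Friesian, a dairy breed, both labelled as well marbled, against that of Limousin, a beef breed labelled as lean, and each array compared 2 bulls in 2 colours. On 1 slide, 4 Hereford bulls labelled with Cy5 were set against 4 Limousin bulls labelled with Cy3. On the other slide the RNA of the same 4 Limousin bulls, now in Cy5, was set against 4 Holstein-Friesian bulls in Cy3. Both breed comparisons therefore share their control animals. In each of them breed and dye cannot be told apart, and each was made on a slide of its own. No marbling score was used here.

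Solute carriers work either by letting a substrate run down its own gradient or by coupling it to the flow of sodium, protons or another solute, and families are numbered by sequence, with members of a family often sharing a class of substrate. In skeletal muscle the SLC16 family passes lactate and ketone bodies, SLC7, SLC38 and SLC1 carriers bring in amino acids, SLC22A5 takes up carnitine and SLC6A8 takes up creatine. Most members of the SLC25 family sit in the inner mitochondrial membrane, where they exchange ADP for ATP, admit acylcarnitines and carry cofactors and metabolites. Nucleosides cross the plasma membrane on SLC28 and SLC29 proteins, and SLC35 proteins carry nucleotide sugars into the Golgi and endoplasmic reticulum.

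Depth differed between the channels. The median net signal was 97 to 139 intensity units for Hereford (Cy5), 63 to 88 for Limousin in Cy3, 96.5 to 118 for Limousin in Cy5 and 30.5 to 46.5 for Holstein-Friesian (Cy3), and the number of solute carriers above background was lowest in the last of these, 94 to 99 of 126 against up to 123 in the others. Replicate arrays of the Holstein-Friesian slide correlated at r = 0.403 to 0.595 over all probes, those of the Hereford slide at 0.0611 (arrays 1 and 3) to 0.531. The samples carried the markers of skeletal muscle: 8 of 10 listed genes were measured (TTN and TNNT3 were not), all above background in every reading, with a summed level of 20.09 to 20.21 log2 units for Hereford bulls, 19.81 to 20.15 for Holstein-Friesian bulls and 19.63 to 19.74 (Cy3) or 19.95 to 20.07 (Cy5) in Limousin.

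Relative to Limousin, 11 of 126 solute carriers passed the test in Hereford (8.73%, 7 higher and 4 lower) against 7.14% of all 17061 probes (3.39% higher and 3.75% lower). In Holstein-Friesian 10 passed (7.94%, 4 higher and 6 lower) against 6.45% of all probes (3.00% higher and 3.45% lower). Passing means a limma p-value adjusted over all probes under 0.05, two-sided, and "rose", "fell", "higher" and "lower" without a value are used below for such genes, always as breed over Limousin on the log2 scale. Both shares lie near those of all probes. The median difference over the 126 genes was -0.0051 log2 in Hereford and -0.025 in Holstein-Friesian, beside 0.0075 and -0.015 over all probes. All 4 arrays pointed the same way for 38 of the 126 genes in Hereford (27.7% of all probes did) and for 45 in Holstein-Friesian (36.5% of all probes). Fewer cells of a type and less RNA per cell cannot be told apart in these whole-muscle samples.

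**Figure D1:**
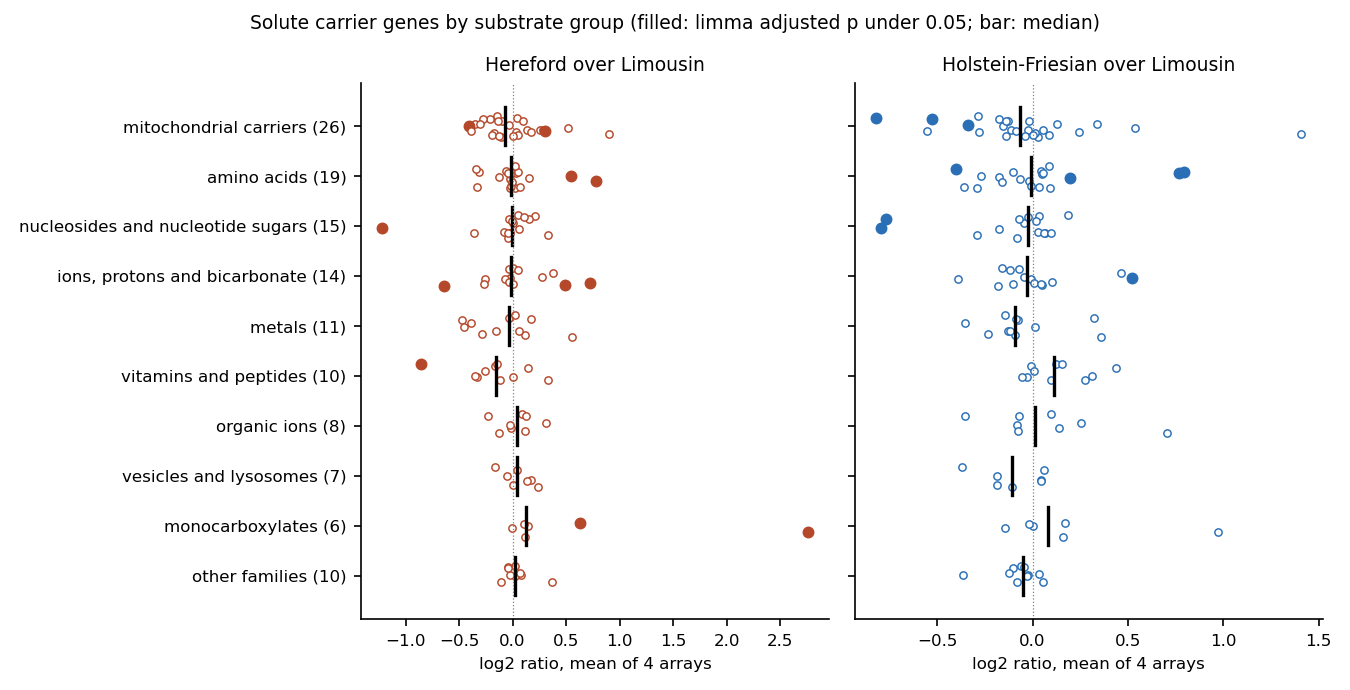
Mean log2 ratio over Limousin of each measured solute carrier, in rows by substrate group with the number of genes in brackets, for Hereford (left) and Holstein-Friesian (right); each point is 1 gene, filled where the limma adjusted p was under 0.05, and the bar is the group's median. Group medians sit close to 0, and the genes that passed are single points at the edges, such as SLC16A6 at 2.76 and SLC29A2 at -1.22 in Hereford.

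Leaving out the 2 arrays of bull number 1, 2, 3 or 4 gave 8, 1, 4 and 1 solute carriers in Hereford, where 6.18%, 0.264%, 2.06% and 0.176% of all probes passed, and 7, 1, 5 and 2 in Holstein-Friesian, where 4.75%, 0.457%, 1.61% and 0.744% did. The members' counts fell together with those of all probes. The fit pools the spread of both slides, and with the Hereford arrays alone 1 gene passed (SLC29A2, with 0.158% of all probes), while 5 passed with the Holstein-Friesian arrays alone (4.92% of all probes). Without loess, with each array centred on its median only, 5 passed in Hereford (4 higher, 1 lower) and 50 in Holstein-Friesian (14 higher, 36 lower). That setting moved the median of all probes to 0.099 in Hereford and -0.20 in Holstein-Friesian, and 1.85% and 39.1% of all probes passed.

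SLC29A2, an equilibrative carrier of purine and pyrimidine nucleosides, was lower in both marbled breeds and had the smallest adjusted p of the 126 genes in each. Its log2 ratios were -0.91, -1.28, -1.35 and -1.34 in Hereford arrays 1 to 4 and -0.78, -1.05, -0.77 and -0.59 in Holstein-Friesian arrays 1 to 4. All 8 ratios were below 0, with Hereford array 1 nearest to 0 on its slide. SLC29A2 fell by 1.22 log2 in Hereford (SE 0.097, n = 4, limma adjusted p = 0.00235) and by 0.80 in Holstein-Friesian (SE 0.097, n = 4, limma adjusted p = 0.00703). In channel levels, Hereford read 10.75 to 11.67 log2 units against 12.09 to 12.58 in Limousin on the same slide, and Holstein-Friesian 10.98 to 11.43 against 11.57 to 12.21. The groups did not overlap on either slide.

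Averaged over both slides for each Limousin bull, SLC29A2 read -0.84, -1.16, -1.06 and -0.97 for bulls 1 to 4. This was the only solute carrier that passed in the marbled mean (1 of 126, 0.794%, against 0.598% of all probes), with a mean of -1.01 (SD 0.14, n = 4, limma adjusted p = 0.0354). For 48 of the 126 genes all 4 bulls pointed the same way in this mean (28.4% of all probes). The size of the SLC29A2 value held at -1.06 to -0.95 when a bull was left out, but the adjusted p rose to 0.0618 to 0.183, and at most 1 probe of any gene passed in those fits. In Hereford the call held without each bull in turn (limma adjusted p = 0.0162 to 0.0458), and in Holstein-Friesian it was lost without bull 2 (adjusted p = 0.0601).

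SLC29A2 also differed between the 2 readings of the Limousin bulls themselves, Cy5 on 1 slide and Cy3 on the other, in which dye and slide cannot be told apart. The same 4 Limousin RNAs differed by -0.44 log2 as Cy5 minus Cy3 across the slides (limma adjusted p = 0.0367). Read in 1 dye across the slides, the ratio was -0.77 in Hereford (adjusted p = 0.0111) and -1.24 in Holstein-Friesian (adjusted p = 0.00175), so that the order of the breeds turned while both ratios still passed. The marbled mean is the same in both readings by construction.

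**Figure D2:**
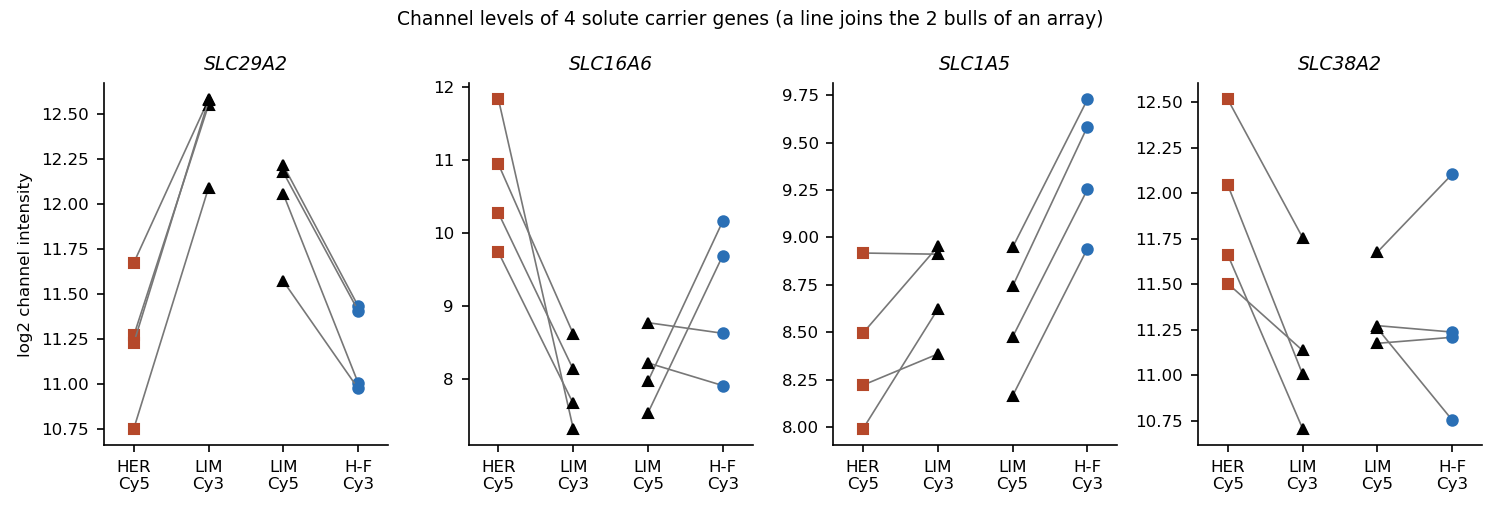
Channel levels in log2 intensity units of SLC29A2, SLC16A6, SLC1A5 and SLC38A2 in Hereford (HER, squares), Limousin (LIM, triangles, once in each dye) and Holstein-Friesian (H-F, circles), 1 point per bull, with a line joining the 2 bulls of an array. For SLC29A2 the Limousin readings lie at 12.09 to 12.58 (Cy3) and 11.57 to 12.21 (Cy5), above both other breeds on their slides; for SLC16A6 all 4 Hereford readings lie above Limousin, while 2 Holstein-Friesian lines rise and 2 fall.

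The other nucleoside carriers did not pass in either breed. SLC29A1, the more widely expressed equilibrative carrier, averaged -0.025 in Hereford (SE 0.064) and 0.066 in Holstein-Friesian (SE 0.064), and the sodium-coupled SLC28A1 averaged -0.077 and 0.027. The Holstein-Friesian value of SLC29A1 depends on the scaling: with median centring only it was -0.49 (adjusted p = 0.0347). Among the 12 SLC35 genes measured, SLC35F5 passed in Holstein-Friesian. Its ratios there were -0.81, -0.72, -0.82 and -0.72, against -0.18, 0.091, 0.45 and 0.26 in Hereford. The 4 Holstein-Friesian arrays agreed closely, and SLC35F5 fell by 0.77 (SE 0.095, limma adjusted p = 0.00724), while in Hereford 3 of 4 arrays were above 0 and the mean was 0.16. The call was lost without bull 2 (adjusted p = 0.0610) or bull 4 (0.0594). In Cy3 across slides SLC35F5 was -0.41 (adjusted p = 0.113). The other 11 SLC35 genes did not pass in either breed, including SLC35B2, which carries the sulphate donor of the Golgi, at -0.36 in Hereford and 0.062 in Holstein-Friesian.

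In Hereford the monocarboxylate carriers held the largest rise of the set. SLC16A6, known as a ketone body carrier, read 4.51, 2.07, 2.14 and 2.32 log2 in Hereford arrays 1 to 4. All were above 2, and array 1 stood more than 2 log2 units above the rest. SLC16A6 rose by 2.76 (SE 0.55, n = 4, 6.77-fold, limma adjusted p = 0.0278). Without bull 1 the rise was 2.18 (adjusted p = 0.0480). Without bulls 2, 3 or 4 the value was as large, at up to 2.99, but did not pass (adjusted p up to 0.116).

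In Holstein-Friesian the SLC16A6 arrays were split. Their ratios were 2.15, 2.19, -0.31 and -0.15, with arrays 1 and 2 as high as the Hereford arrays 2 to 4 and arrays 3 and 4 slightly below 0. The mean of 0.97 had an SD of 1.39 (n = 4, limma adjusted p = 0.341). The difference between the breeds was not beyond this spread (1.79, SE 0.78, adjusted p = 0.241). In the marbled mean the per-bull values were 3.33, 2.13, 0.91 and 1.09, all above 0, with a mean of 1.87 (adjusted p = 0.113), and with the arrays of a Limousin bull treated as a block it passed (adjusted p = 0.0469).

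SLC16A1, the carrier that takes lactate into oxidative fibres, read 0.90, 0.86, 0.16 and 0.60 in Hereford and 0.29, 0.074, 0.0098 and 0.31 in Holstein-Friesian. All 8 ratios were above 0, and the Hereford rise of 0.63 passed (SE 0.12, limma adjusted p = 0.0257), whereas the Holstein-Friesian mean of 0.17 did not (adjusted p = 0.454). Without bull 3, whose Hereford ratio was the lowest, SLC16A1 kept its call. It lost it without bulls 1, 2 or 4 (adjusted p up to 0.144). SLC16A3, which exports lactate from glycolytic fibres, was at -0.0059 in Hereford and -0.15 in Holstein-Friesian, with SEs of 0.10 and 0.10, and did not pass. The remaining 3 measured members, SLC16A7, SLC16A10 and SLC16A13, lay between -0.017 and 0.16 over both breeds and did not pass. MYH7, the slow-fibre myosin, was itself higher in Hereford (1.18, limma adjusted p = 0.0470) and read 1.06 in Holstein-Friesian (adjusted p = 0.0681). MB (myoglobin), from the same list of muscle markers, read 0.41 in Hereford (adjusted p = 0.201) and was lower in Holstein-Friesian (-1.02, adjusted p = 0.0167). The part of either gene in the SLC16 results was not tested.

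Of 19 measured amino acid carriers, 2 rose and none fell in Hereford (10.5%, against 7.14% of all probes), and 3 rose and 1 fell in Holstein-Friesian (21.1%, against 6.45%). SLC38A2, a sodium-coupled carrier of small neutral amino acids, read 0.76, 0.37, 0.95 and 1.04 in Hereford and 0.43, -0.035, -0.50 and 0.033 in Holstein-Friesian. Every Hereford ratio was above 0 and the Holstein-Friesian ratios fell on both sides. The Hereford rise was 0.78 (SE 0.15, 1.72-fold, limma adjusted p = 0.0270). It held without bull 1 and not without bulls 2, 3 or 4 (adjusted p = 0.0460 to 0.156 over the 4 fits).

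SLC1A5, which exchanges glutamine and other neutral amino acids, moved in Holstein-Friesian with little spread between the arrays. The ratios were 0.78, 0.78, 0.78 and 0.84. The rise of 0.79 (SD 0.032, SE of the fit 0.099, 1.73-fold, limma adjusted p = 0.00724) held without each bull in turn (adjusted p = 0.0295 to 0.0486). With median centring only, SLC1A5 did not pass in Holstein-Friesian. Hereford went the other way, with ratios of -0.46, -0.63, -0.16 and 0.0063 and a mean of -0.31 that did not pass (adjusted p = 0.0992).

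SLC7A5, the light chain known as the leucine carrier LAT1, was near the detection limit. It was above background in 9 of 16 readings and in only 2 of the 8 on the Holstein-Friesian slide, 1 of each breed. Its ratios were small and alike, 0.17, 0.19, 0.11 and 0.14 in Hereford and 0.20, 0.21, 0.16 and 0.22 in Holstein-Friesian. The Holstein-Friesian mean of 0.20 passed narrowly (limma adjusted p = 0.0470), but as most of these signals were not well above background its size is uncertain. It did not pass with the Limousin bull as a block (adjusted p = 0.0502) or whichever bull was left out (0.121 to 0.212). The marbled mean of 0.17 did not pass (adjusted p = 0.137), except with the Limousin bull as a block (0.0405). Its partner chain SLC3A2 was not measured.

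Members of the SLC6 family carry neurotransmitters, creatine and taurine with sodium and chloride. SLC6A4, the serotonin transporter, read 0.77, 0.62, 0.41 and 0.37 in Hereford and -0.039, -0.24, -0.22 and -0.58 in Holstein-Friesian. The 2 breeds lay on opposite sides of 0 in all 8 arrays, and the Hereford rise was 0.54 (SE 0.10, limma adjusted p = 0.0231). Only the fit without bull 1 kept that call (adjusted p = 0.0474 to 0.131 over the 4 fits). Carriers of this family tied to muscle did not pass: SLC6A8 for creatine averaged -0.13 in Hereford (SE 0.10) and -0.18 in Holstein-Friesian (SE 0.10), and SLC6A6 for taurine 0.023 and 0.087, with no Holstein-Friesian reading of SLC6A6 above background.

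The fall among amino acid carriers was SLC38A7, a glutamine and asparagine carrier of the lysosome. It read -0.46, -0.57, -0.085 and -0.49 in Holstein-Friesian and -0.32, -0.57, -0.24 and -0.24 in Hereford. All 8 ratios were below 0. The Holstein-Friesian mean of -0.40 passed (SE 0.093, limma adjusted p = 0.0431), the Hereford mean of -0.34 did not (adjusted p = 0.0657), and the marbled mean of -0.37 passed with the Limousin bull as a block (adjusted p = 0.0289) and not otherwise (0.0961). Without bulls 1, 2 or 4 the Holstein-Friesian call was lost (adjusted p up to 0.203). A second, dimmer probe of SLC38A7, above background in 4 readings, gave -0.12 and -0.084.

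**Figure D3:**
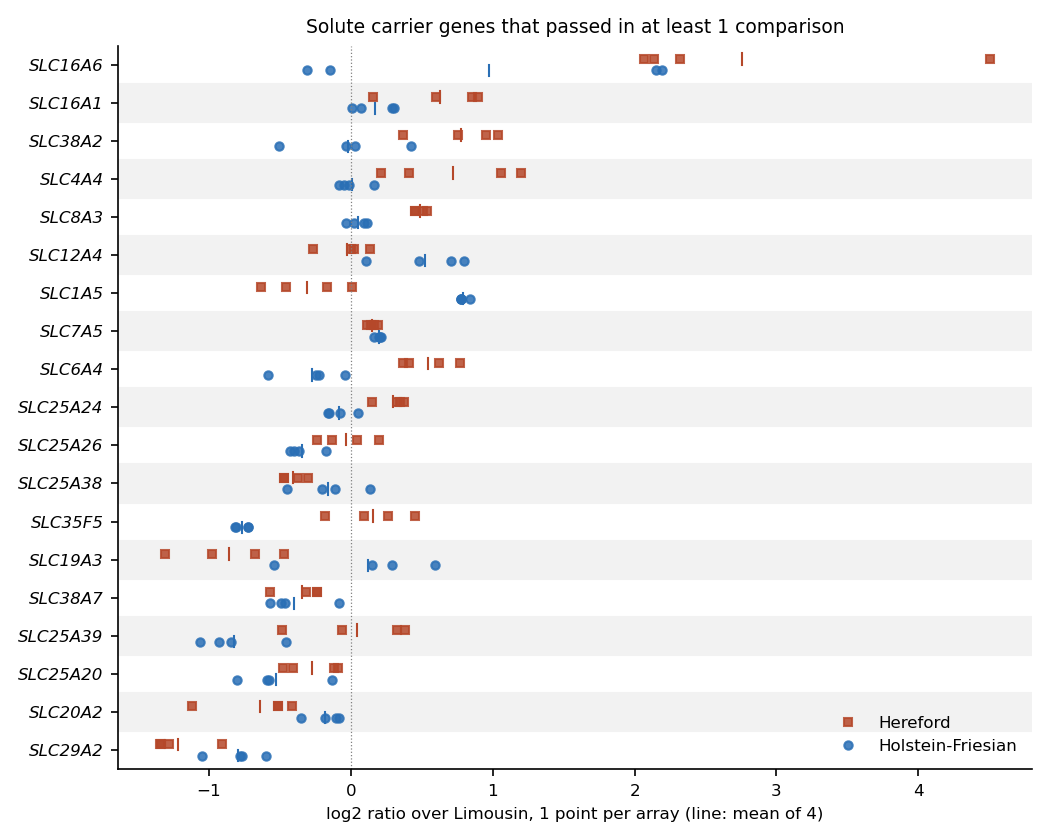
Log2 ratio over Limousin on each array for 19 solute carriers that passed in at least 1 breed comparison, with Hereford as squares, Holstein-Friesian as circles and a short line at the mean of 4 arrays. SLC29A2 lies left of 0 on all 8 arrays; SLC1A5 (Holstein-Friesian 0.79) and SLC8A3 (Hereford 0.49) have the tightest points among the larger changes, and SLC16A6 the widest.

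The SLC25 family, taken whole as the mitochondrial carriers, was the best covered group, with 26 of 27 genes measured and 22 of them above background in every reading. In Hereford 1 rose and 1 fell (7.69%, against 7.14% of all probes), and in Holstein-Friesian none rose and 3 fell (11.5%, against 6.45%). The family's median was -0.067 in Hereford and -0.064 in Holstein-Friesian, with 14 and 16 of the 26 genes below 0, beside the medians near 0 over all probes given above. The genes that passed carry different substrates.

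Among the carriers of fuel, SLC25A20, which brings acylcarnitines into the matrix for beta-oxidation, passed in Holstein-Friesian. It read -0.58, -0.80, -0.13 and -0.59 in Holstein-Friesian and -0.12, -0.48, -0.087 and -0.41 in Hereford. All 8 ratios were below 0, with bull 3 the nearest to 0 on both slides. SLC25A20 fell by 0.53 in Holstein-Friesian (SE 0.11, limma adjusted p = 0.0372), while its Hereford mean of -0.27 did not pass (0.194). The Holstein-Friesian call held without bull 3 and was lost without each of the others (adjusted p up to 0.174), and the marbled mean of -0.40 passed only with the Limousin bull as a block (adjusted p = 0.0391). SLC22A5, which brings carnitine into the cell, averaged 0.32 in Hereford and 0.25 in Holstein-Friesian and did not pass (adjusted p = 0.0937 and 0.167).

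The 4 measured ADP/ATP carriers had unlike values and none passed. SLC25A4, the main muscle form, read -0.81, -0.74, 0.16 and -0.16 in Hereford and -0.81, -0.50, -0.28 and -0.64 in Holstein-Friesian, with means of -0.39 and -0.55 (limma adjusted p = 0.196 and 0.0875). SLC25A5, the form of dividing cells, read 0.25, 0.26, 0.81 and 0.75 and 0.62, 0.10, 0.78 and 0.63, above 0 on all 8 arrays, with means of 0.52 and 0.53 (adjusted p = 0.0611 and 0.0588). SLC25A6, the more general form, averaged -0.31 and 0.34. SLC25A5 passed in Holstein-Friesian and in the marbled mean with the Limousin bull as a block, and SLC25A4 passed in Holstein-Friesian when read in 1 dye (-0.75, adjusted p = 0.0259). SLC25A31, the form of the testis, averaged 0.0026 in Hereford and had no Holstein-Friesian reading above background, so that its ratio there is only a bound; it passed there from the processed signals and from the ratios as deposited. The 4 genes are close relatives, and probes of this design were not tested for binding to more than 1 of them.

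The malate-aspartate shuttle, which moves reducing equivalents into the matrix, has SLC25A11 and SLC25A12 as its carriers. SLC25A11 averaged 0.13 in Hereford and 0.056 in Holstein-Friesian, and SLC25A12 -0.11 and 0.029, with no call. With median centring only, SLC25A11 turned to -0.62 in Holstein-Friesian (adjusted p = 0.0320).

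Besides SLC25A20, the Holstein-Friesian falls in this family were SLC25A39 and SLC25A26. SLC25A39, which brings glutathione into mitochondria, read -0.46, -0.84, -0.93 and -1.06 in Holstein-Friesian, where it fell by 0.82 (SE 0.15, limma adjusted p = 0.0226), and -0.060, -0.48, 0.33 and 0.38 in Hereford. The Limousin RNAs read 0.32 higher in Cy5 than in Cy3 for this gene (adjusted p = 0.0482), and in Cy3 across slides the Holstein-Friesian ratio was -0.50 (adjusted p = 0.0490). SLC25A26, the carrier of the methyl donor S-adenosylmethionine, read -0.17, -0.43, -0.40 and -0.37, a mean of -0.34 (adjusted p = 0.0482) that did not pass with the Limousin bull as a block (0.0670). Both lost their calls without bulls 2, 3 or 4 (adjusted p up to 0.112 and 0.201).

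In Hereford the pair that passed was SLC25A24, a calcium-regulated carrier of ATP-magnesium and phosphate, and SLC25A38, which brings in glycine for heme synthesis. SLC25A24 read 0.15, 0.38, 0.33 and 0.35 there, a rise of 0.30 (SE 0.062, limma adjusted p = 0.0307). SLC25A38 read -0.47, -0.37, -0.30 and -0.47, a mean of -0.40 (SE 0.090, adjusted p = 0.0364). All 4 arrays agreed in direction for each gene. SLC25A24 lost its call without bulls 2, 3 or 4 (adjusted p up to 0.157), and SLC25A38 whichever bull was left out (0.0554 to 0.162).

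SLC25A25, a close relative of SLC25A24 with the same kind of substrate, had the largest mean of the family and did not pass. It read 1.30, 1.89, 0.45 and -0.032 in Hereford and 0.90, 2.25, 1.94 and 0.54 in Holstein-Friesian. High ratios came from bulls 1 and 2 on the Hereford slide and from bulls 2 and 3 on the other. The means were 0.90 (SD 0.86, limma adjusted p = 0.176) and 1.41 (SD 0.81, adjusted p = 0.0591), and a second, dimmer probe gave 0.12 and 0.22.

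**Figure D4:**
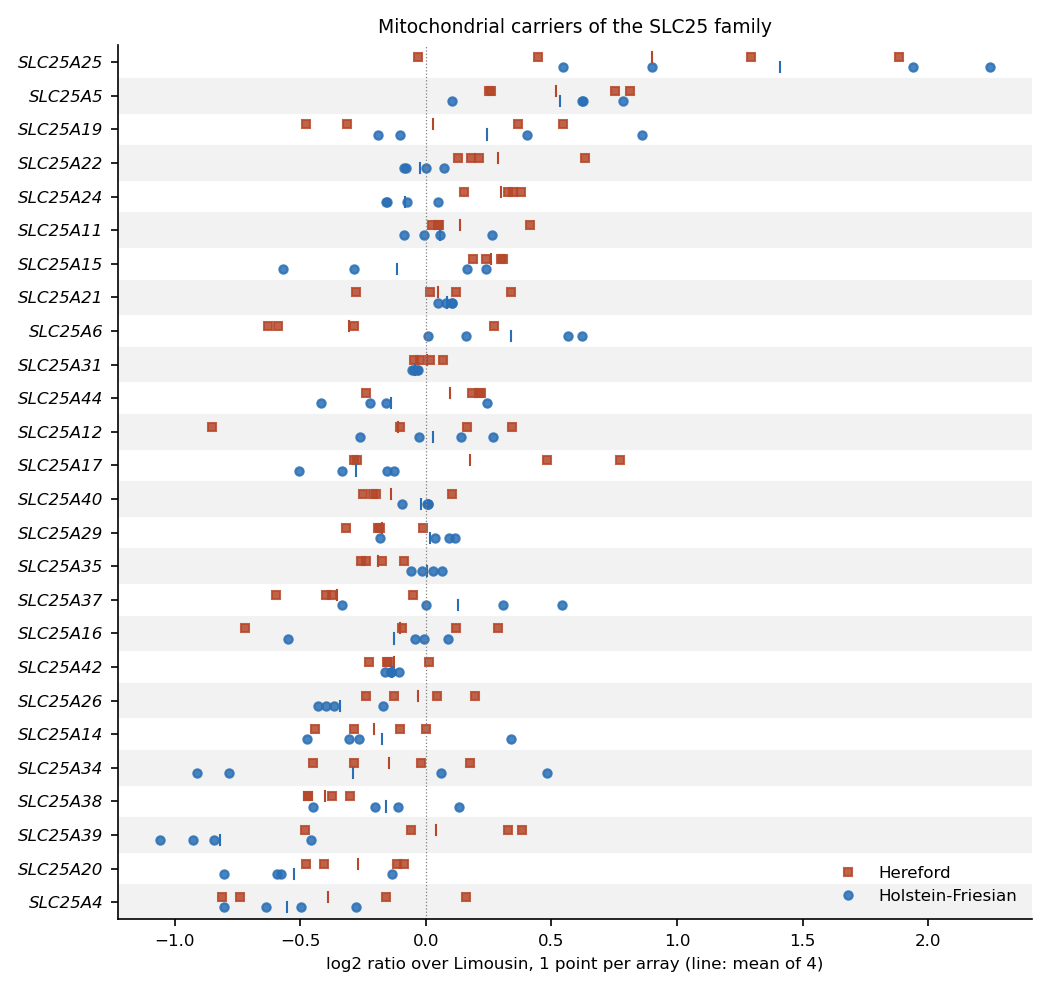
Log2 ratio over Limousin on each array for the 26 measured SLC25 carriers, with Hereford as squares, Holstein-Friesian as circles and a short line at the mean of 4. Most means lie near 0; SLC25A25 and SLC25A5 lie to the right, SLC25A4 and SLC25A20 to the left in both breeds, and SLC25A39 at -0.82 in Holstein-Friesian and 0.042 in Hereford.

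Of 14 measured carriers of ions, protons and bicarbonate, 2 rose and 1 fell in Hereford (21.4%, against 7.14% of all probes) and 1 rose in Holstein-Friesian (7.14%, against 6.45%). SLC8A3, a sodium-calcium exchanger found in skeletal muscle and brain, read 0.54, 0.51, 0.45 and 0.46 in Hereford and -0.032, 0.094, 0.023 and 0.11 in Holstein-Friesian. The breeds did not overlap, and the Hereford rise of 0.49 had the second smallest adjusted p among the calls in that breed (SE 0.051, limma adjusted p = 0.00655). It held without bulls 1 and 3 and not without bulls 2 (0.0615) or 4 (0.0585), and the marbled mean of 0.27 passed only with the Limousin bull as a block (adjusted p = 0.0171). A dimmer SLC8A3 probe read 0.11 in Hereford (limma adjusted p = 0.245) and 0.057 in Holstein-Friesian (0.558).

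SLC4A4, a sodium-bicarbonate cotransporter that takes part in control of cell pH, read 1.06, 0.41, 0.21 and 1.20 in Hereford, with arrays 1 and 4 high. The rise was 0.72 (SD 0.48, limma adjusted p = 0.0348), beside 0.0075 in Holstein-Friesian (SD 0.11), and it did not pass whichever bull was left out (0.0518 to 0.171). The phosphate carrier SLC20A2 read -1.12, -0.52, -0.51 and -0.42 in Hereford, with array 1 the lowest. It fell by 0.64 (SE 0.11, limma adjusted p = 0.0203), and without bull 1 by 0.48 (adjusted p = 0.0310); without bulls 2, 3 or 4 it did not pass (up to 0.0982). The potassium-chloride cotransporter SLC12A4 read 0.70, 0.48, 0.80 and 0.11 in Holstein-Friesian and averaged -0.026 in Hereford. Its rise of 0.52 (SE 0.12, limma adjusted p = 0.0393) was above the threshold with the Limousin bull as a block (0.0513) and whichever bull was left out (0.0613 to 0.158).

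Of 10 measured vitamin and peptide carriers, 1 passed in Hereford (10%, against 7.14% of all probes) and none in Holstein-Friesian (6.45% of all probes). SLC19A3, which takes up thiamine, read -1.31, -0.98, -0.47 and -0.67 in Hereford and -0.54, 0.60, 0.15 and 0.29 in Holstein-Friesian. The Hereford ratios were all below 0, and the drop of 0.86 passed (SE 0.19, limma adjusted p = 0.0359), but not without bulls 2, 3 or 4 (adjusted p up to 0.146). Group medians were -0.15 in Hereford and 0.11 in Holstein-Friesian. The folate carrier SLC19A1 averaged -0.25 and 0.0066, and the choline carrier SLC44A2 0.33 and 0.099, with no call.

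No member passed in either breed among 11 metal carriers, 8 carriers of organic ions, 7 carriers of vesicles and lysosomes and 10 genes of other families. At an unadjusted limma p under 0.05 these 4 groups gave 2, 1, 0 and 1 genes in Hereford and 1, 3, 3 and 1 in Holstein-Friesian. Of all 17061 probes, 4122 in Hereford and 4011 in Holstein-Friesian had such a p. Among the metal carriers, the iron exporter SLC40A1 averaged -0.39 and -0.36 (SE 0.28 in each), and a second probe of it gave -0.045 and 0.054. The zinc importer SLC39A1 averaged -0.45 in Hereford (adjusted p = 0.0676) and 0.013 in Holstein-Friesian, the latter turning to -0.48 with median centring only (adjusted p = 0.0352). SLC11A1, a metal carrier of phagocytes, averaged -0.47 in Hereford (adjusted p = 0.0852) and -0.077 in Holstein-Friesian. In these groups the largest mean was that of the carnitine carrier SLC22A16 in Holstein-Friesian (0.70, SD 0.62, adjusted p = 0.156).

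Tested directly, 4 of 126 solute carriers differed between Hereford and Holstein-Friesian, each taken over Limousin (3.17%, 3 higher and 1 lower, against 2.71% of all probes, 1.56% higher and 1.15% lower). SLC35F5 (0.92, SE 0.13, limma adjusted p = 0.0231), SLC6A4 (0.82, SE 0.14, 0.0341) and SLC8A3 (0.44, SE 0.073, 0.0312) were higher in Hereford. The dimmer SLC8A3 probe gave a difference of 0.051 (adjusted p = 0.743), and with the mean of a gene's probes SLC8A3 did not pass. SLC1A5 was lower in Hereford (-1.10, SE 0.14, 0.0171). Dye and slide effects would add up in this contrast. Read in 1 dye across slides none of the 126 passed by limma, where 1.35% of all probes did. Of the 126, 28 had an unadjusted p under 0.05, as did 3444 of all 17061 probes. In 1 dye SLC1A5 was at -0.83 (adjusted p = 0.0560), SLC6A4 at 0.71 (0.0848), SLC8A3 at 0.32 (0.140) and SLC35F5 at 0.20 (0.587). The 4 calls dropped to 0 without bull 2, 3 or 4. With the Limousin bull as a block 9 passed (7.14%, against 10% of all probes), the added ones being SLC19A3 (adjusted p = 0.0306), SLC25A24 (0.0229), SLC25A39 (0.0339), SLC38A2 (0.0410) and SLC46A3. With median centring only, 52 passed (41.3%, 38 higher and 14 lower), against 36.5% of all probes, and SLC1A5 was not among them.

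Each breed was also set against Limousin in the same dye, which moves the comparison across the slides and uses another scaling, so that dye, slide and scaling change together. In Cy5 across slides 8 of the 11 Hereford calls remained (4.00% of all probes passed), and SLC6A4 (adjusted p = 0.0673), SLC25A24 (0.293) and SLC25A38 (0.0798) did not pass. In Cy3 across slides 7 of the 10 Holstein-Friesian calls remained (5.96% of all probes passed), SLC12A4 (adjusted p = 0.0569), SLC7A5 (0.266) and SLC35F5 (0.113) did not, and SLC25A4 was added. Every one of the 21 values kept its sign. In the Limousin bulls themselves 6 solute carriers passed between Cy5 on 1 slide and Cy3 on the other, where 4.40% of all probes did: SLC29A2 and SLC25A39, given above, and SLC35B2, SLC39A1, SLC46A3 and SLC52A2, which read between -0.43 and -0.37 in Cy5 minus Cy3.

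**Figure D5:**
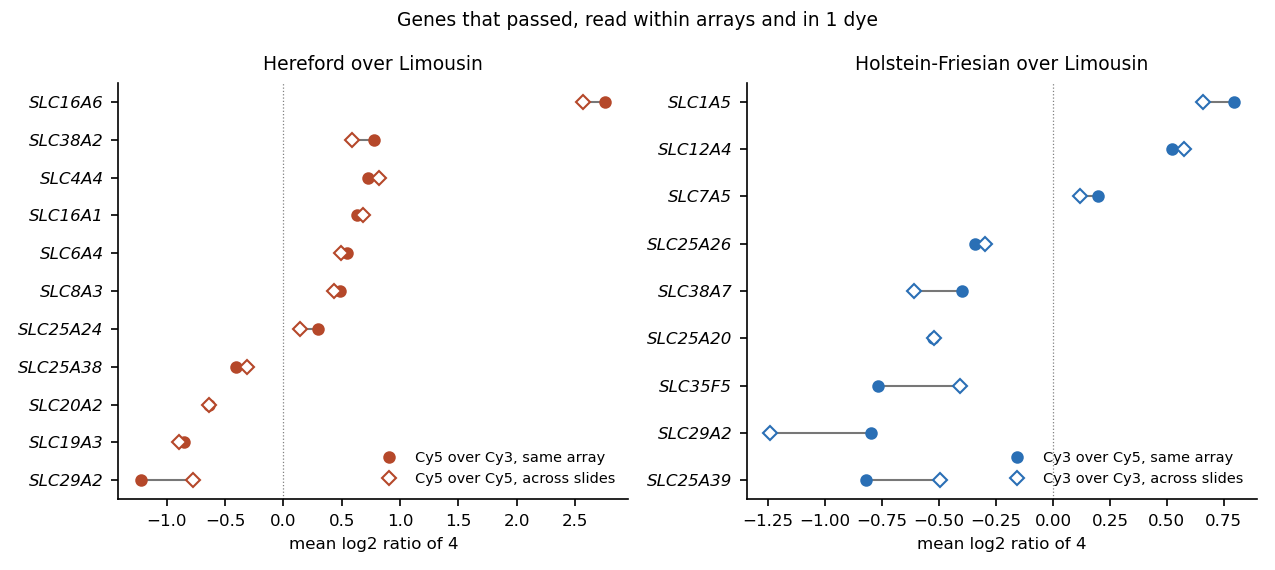
Mean log2 ratio over Limousin of solute carriers that passed, read within arrays (filled circles, 2 dyes on 1 slide) and read in a single dye across slides (open diamonds), for Hereford (left, Cy5) and Holstein-Friesian (right, Cy3). The longest lines belong to SLC29A2 (Hereford -1.22 against -0.77, Holstein-Friesian -0.80 against -1.24), and no point crosses 0.

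A list of 25 transporters known for their work in muscle was looked up by name, and 18 were measured. In Hereford SLC16A1, SLC16A6 and SLC38A2 rose and SLC29A2 fell (22.2%, against 7.14% of all probes); in Holstein-Friesian SLC1A5 and SLC7A5 rose and SLC25A20 and SLC29A2 fell (22.2%, against 6.45%). The list was chosen with results of these data known. The remaining 11 passed in neither breed. The median over the 18 was -0.015 in Hereford and 0.035 in Holstein-Friesian. Of 40 transport genes outside the numbered families, such as the pyruvate carriers, voltage-dependent anion channels and sodium pump subunits, 21 were measured. Of these, 1 passed in Holstein-Friesian (4.76%, against 6.45% of all probes) and none in Hereford (7.14% of all probes). It was the uncoupling protein UCP3, a relative of the SLC25 carriers, at -1.67 in Holstein-Friesian (limma adjusted p = 0.00850) and -0.86 in Hereford (0.0536). BSG, the protein that escorts SLC16A1 to the membrane, averaged -0.14 and -0.65 and did not pass.

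All 8 measured skeletal muscle markers were above 0 in Hereford, with a median of 0.35, and MYH7 passed. In Holstein-Friesian 4 were above 0 and 4 below, with a median of -0.016, and MB passed as lower. Markers of other cell types were read beside the solute carriers, and few passed. Of 8 fibroblast markers 7 were measured, with a median of -0.66 in Holstein-Friesian (COL3A1 -2.53, adjusted p = 0.0125, the 1 gene that passed; 4 were below 0 and 3 above, DCN at 0.23, PDGFRA at 0.27 and POSTN at 0.31) and 0.10 in Hereford, and a summed level of 13.76 to 14.86 log2 units in Holstein-Friesian against 14.75 to 15.67 in Limousin on that slide. Of 9 macrophage markers 4 were measured, with medians of 0.55 in Holstein-Friesian and -0.31 in Hereford and sums of 11.60 to 13.21 and 10.66 to 11.45 log2 units, against 10.79 to 11.91 and 11.12 to 12.18 in Limousin on the same slides; none passed. CSF1R, CD163, MRC1, C1QB and TYROBP were not measured. Of 10 adipocyte markers 9 were measured, ADIPOQ not, with medians of -0.048 in Hereford and -0.26 in Holstein-Friesian; CIDEA (-0.42, adjusted p = 0.0470) and CFD (1.17, 0.0166) passed in Holstein-Friesian. Of 6 measured smooth muscle and pericyte markers 2 were higher in Hereford, CNN1 (1.09) and RGS5 (0.77). The median of these 6 was 0.14, with 5 above 0 and MYH11 at -0.17. Of 6 lymphocyte markers 2 were higher in Holstein-Friesian, CD3E (0.52) and CD8A (0.51). Their median was 0.047, with 4 above 0 and 2 below, CD2 at -0.023 and MS4A1 at -0.062. Of all probes 7.14% passed in Hereford and 6.45% in Holstein-Friesian. The part of these cell types in the solute carrier results was not tested.

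Some members rest on weak signals. SLC6A2 and SLC7A1 entered with 4 readings above background, and SLC29A3, SLC31A1, SLC4A10 and SLC5A12 missed with 3. The erythrocyte anion exchanger SLC4A1 and the cardiac sodium-calcium exchanger SLC8A1 had none, and so were among 37 named genes not measured. In Holstein-Friesian 20 of the 126 genes had no reading above background, so that their ratios there are only bounds, and SLC6A15 and SLC6A2 had none in the Limousin channel of that slide either. By the brightest probe, Limousin was at least 1.14-fold higher for SLC37A3 and by less for 9 others, and no bound could be set for the other 10. A second SLC37A3 probe pointed the other way, at 0.040 in Holstein-Friesian (limma adjusted p = 0.721). No breed difference passed in any of the 20. For 11 genes more than 1 probe was measured, and the probes disagreed in sign for 1 gene in Hereford, 4 in Holstein-Friesian and 6 in the marbled mean.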

How the data were processed

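Total RNA from 12 bulls was hybridised to 8 two-colour Agilent arrays on 2 slides. Per the file headers, the deposited spot intensities come from Agilent Feature Extraction 10.7.3.1, whose deposited log10 ratios (Cy5 over Cy3) equal the value table in all 44407 spots of each array (tolerance 1e-06; each median 0). Array names refer to build Btau_3.1 per the file headers, and gene symbols came from RefSeq accessions (ARS-UCD2.0 names).

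Median spot intensities were corrected with median local background by normexp (offset 50) and normalised by loess (span 0.3). Ratios were turned to breed over Limousin and averaged per probe in limma 3.58.1 (R 4.3.3). Probes with at least 4 of 16 readings above background were kept (17061 of 21475; 7079 probes of 6693 genes had a symbol), and each gene took its brightest probe. One fit over 8 arrays gave both breeds and their difference; the marbled mean used the average of both ratios of each Limousin bull (n = 4). P-values were adjusted by Benjamini-Hochberg over all kept probes. No column was left unused (0). The number of arrays limits the precision.

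By the Limousin source names, arrays of equal number on the 2 slides hold RNA of 1 bull, which pairs them. Deviations of same-numbered arrays correlated at 0.415, 0.273, 0.500 and 0.0987. For bull 4 the Hereford array correlated more with a Holstein-Friesian array of another number than with its own. Blocked fits used a consensus correlation of 0.305. Readings in 1 dye used Aquantile scaling. Named genes were all solute carriers that passed (at most 8 rises and 8 falls per breed, 4 each for the difference) and 25 listed muscle transporters; others named were chosen after their values were seen. The members and lists were chosen with earlier results of these data known. Alternatives were median centring, Feature Extraction's processed signals, the deposited ratios, offset 10, other filters, the mean of a gene's probes, blocks, single slides, 1 dye and each bull left out. Genes with a pattern like SLC16A6 or SLC29A2 were not sought, as 8 arrays that share 4 Limousin bulls are not independent, and promoter sequences were not used here. Results of some genes are not reported here, though they stay in the counts.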

Additional observations from a re-analysis of the deposited data

Results flagged for a closer look

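On 6 occasions 1 array of a breed lay far from the other 3, by Dixon's criterion for 4 values, among 62 sets of 4 ratios examined for 31 named genes; chance gives about 1 such set in 20. SLC16A6 read 4.51 in Hereford array 1 against 2.07 to 2.32 in the others. SLC29A2 read -0.91 there against -1.35 to -1.28. SLC20A2 read -1.12 there against -0.52 to -0.42. SLC25A11 read 0.41 in Hereford array 3 against 0.025 to 0.053. SLC1A5 read 0.84 in Holstein-Friesian array 4 against 0.78 in each of the others, a gap of little size. SLC29A1 read -0.12 in Holstein-Friesian array 2 against 0.11 to 0.14.

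The ratio over Limousin differed between the breeds by the test of the difference in 4 genes: SLC35F5 (0.92), SLC6A4 (0.82), SLC8A3 (0.44) and SLC1A5 (-1.10), as Hereford minus Holstein-Friesian in log2. The SLC8A3 value is that of its brighter probe, the dimmer probe giving 0.051. Breed, dye and slide cannot be told apart in this contrast.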

How the results depend on the processing

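Over all alternatives, values of genes that passed kept their call in 225 of 357 cases, lost it in the same direction in 132 and reversed in 0. Of 1301 alternatives to values that did not pass, 80 changed sign and 54 gained a call in the same direction. Holstein-Friesian signals were the dimmest, with 20 of the 126 genes at no reading above background there.

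With median centring, probes passing numbered 315 in Hereford, 6678 in Holstein-Friesian, 950 in the marbled mean and 6219 in the difference (main 1218, 1100, 102 and 463), and solute carriers 5, 50, 6 (1 higher, 5 lower) and 52, with medians of 0.066, -0.14, 0.015 and 0.35. Those medians followed all probes, at 0.099, -0.20, 0.0013 and 0.36. SLC25A11 (-0.62), SLC29A1 (-0.49) and SLC39A1 (-0.48) turned negative in Holstein-Friesian, and SLC29A1 positive in the difference (0.68); the cause was not tested. With processed signals, 2157, 444 and 974 probes and 21, 2 and 7 solute carriers passed in Holstein-Friesian, the marbled mean and the difference, and the medians were -0.020 in Hereford, -0.10, -0.036 and 0.095. With the deposited ratios these were 2129, 438 and 979 probes, 19, 2 and 7 genes, and medians of -0.11, -0.047 and 0.095. With offset 10, 483 probes passed in the marbled mean, and the medians were -0.053 in Holstein-Friesian and 0.075 in the difference. With probes above background in all 16 readings only, 371 passed in the marbled mean and the medians were -0.026 in Hereford and 0.030 in the difference; with no filter 42 passed in the marbled mean. Hereford arrays alone gave 27 probes and 1 gene, Holstein-Friesian arrays alone 5 genes. In 1 dye 683 probes passed in Hereford, and 231 probes and 0 genes in the difference (3444 probes and 28 genes at an unadjusted p under 0.05, limma).

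With the replicate block, pairing arrays by Limousin bull, 910 probes and 7 solute carriers passed in the marbled mean and 1714 and 9 in the difference. Hereford kept 11 (8.73%, against 6.98% of all probes) and Holstein-Friesian had 7 (5.56%, against 6.33%). Treating the 8 arrays as unpaired (no replicate block), 1750 probes and 14 solute carriers passed in the marbled mean.

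Leaving out a bull gave 30 to 1055 probes and 1 to 8 genes in Hereford, 78 to 810 and 1 to 7 in Holstein-Friesian, 0 to 1 and 0 in the marbled mean, and 0 to 457 and 0 to 6 in the difference, with 3 bulls left per breed. The medians ranged from -0.0095 to 0.014 in Hereford, -0.033 to -0.020 in Holstein-Friesian, -0.022 to 0.0079 in the marbled mean and 0.020 to 0.046 in the difference.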
